A study of Drosophila melanogaster with 2 samples.

Results

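The peaks described here, of the tagged protein CG32767 in Drosophila melanogaster embryos, are those that the authors kept in the longer of their combined peak lists but not in the stricter one. They were mostly, but not always, weaker than the rest of the longer list. When that list was cut into 5 equal groups by signal, 8 of them were in the highest group. The authors combined both replicates in 2 lists, a longer one and one named conservative. A peak belongs here when it was in the longer list, lay on 2L, 2R, 3L, 3R, 4 or X, and shared not even 1 bp with a conservative peak. Of the 4620 peaks of the longer list on these arms, 1279 met this rule and 3341 overlapped the conservative list, which held 3531 peaks there. The 1279 are called longer-list-only peaks below, and the 3341 are called shared peaks. They were thus selected on measured values, namely how each peak ranked in the comparisons behind the lists, so their signals and replicate values are given as descriptions and no test was made on them.

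The material was 1 group, whole embryos of 0 to 24 hours from a transgenic strain that carries CG32767 joined to the green fluorescent tag eGFP, with no other treatment named in the labels. An antibody against GFP was used to pull the fusion down from sonicated chromatin, in 2 biological replicates of 1 library each. What drives the transgene is not known here, and a whole-embryo sample mixes all tissues and a day of development. No control library was analysed here, and because the lists hold no read counts, the depth of each library is unknown.

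Chromatin immunoprecipitation followed by sequencing recovers DNA that was close to a protein and reports it as peaks, with the summit as the best estimate of the site. Promoters lie just upstream of transcription start sites (TSSs), and introns or the DNA between genes hold enhancers that act over a distance. The irreproducible discovery rate (IDR) estimates how likely a peak is not to rank alike in a second set of peaks, so that a low IDR marks a peak that both sets rank similarly. Signal is the strength that the authors' peak caller gave a peak, in units of that caller, and it was not rescaled between lists. Replicate signals are set side by side as deposited, so a given ratio between them has no fixed meaning. Such ratios only order peaks between the same 2 libraries. A candidate is any interval in a replicate's own list before a threshold was applied, and a replicate's value at a peak is the signal of the strongest candidate that overlaps it. That list need not hold every peak of the replicate, so no candidate means none in that list.

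Base composition under these summits differed between the peaks held by replicate 1 and those held by replicate 2, and the windows below show examples of both. Each is 101 bases of the plus strand of dm6, from RefSeq, centred on a summit. Capitals mark the word AAAATAT with its reverse complement ATATTTT. They also mark GATAC with its reverse complement GTATC, then the CA repeat word ACACACA with its reverse complement TGTGTGT, and last the GA repeat word GAGAG with its reverse complement CTCTC. The first set holds the 5 strongest longer-list-only peaks in the thresholded list of replicate 1 alone, with 1 arm left out of the choice.
bbg, chr3L:14448816-14448916: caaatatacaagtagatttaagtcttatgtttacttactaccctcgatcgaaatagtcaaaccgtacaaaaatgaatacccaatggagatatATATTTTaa
Pex11c, chr3R:23258207-23258307: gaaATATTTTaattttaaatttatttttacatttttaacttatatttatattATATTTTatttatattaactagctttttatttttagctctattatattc
bun, chr2L:12483888-12483988: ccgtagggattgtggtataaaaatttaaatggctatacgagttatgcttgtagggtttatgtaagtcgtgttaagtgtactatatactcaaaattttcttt
CHES-1-like, chrX:7709157-7709257: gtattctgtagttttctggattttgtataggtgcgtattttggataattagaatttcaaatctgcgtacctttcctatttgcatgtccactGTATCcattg
CG10555, chrX:8398686-8398786: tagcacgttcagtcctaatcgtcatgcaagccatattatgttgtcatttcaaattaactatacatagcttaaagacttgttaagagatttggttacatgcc
The second set holds the 5 strongest in the list of replicate 2 alone, chosen in the same way.
Cals, chr4:1122983-1123083: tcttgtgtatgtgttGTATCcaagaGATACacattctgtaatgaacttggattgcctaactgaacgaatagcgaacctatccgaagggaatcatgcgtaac
zfh2, chr4:497835-497935: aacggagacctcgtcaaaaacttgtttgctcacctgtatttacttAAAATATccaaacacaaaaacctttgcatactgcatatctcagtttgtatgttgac
Pits, second site, chrX:12579256-12579356: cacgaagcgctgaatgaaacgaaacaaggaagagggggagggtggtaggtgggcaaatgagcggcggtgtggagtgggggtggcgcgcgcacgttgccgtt
pan, chr4:70241-70341: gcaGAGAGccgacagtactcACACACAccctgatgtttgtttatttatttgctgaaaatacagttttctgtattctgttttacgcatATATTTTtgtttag
jvl, chr3R:14749534-14749634: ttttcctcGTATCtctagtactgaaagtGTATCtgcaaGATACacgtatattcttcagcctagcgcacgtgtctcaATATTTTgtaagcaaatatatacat
The last windows were picked for what they hold: the first Pits site as the neighbour of the second, Abd-B for its copies of GATAC, Alh for its CA repeat, and bel for its CA and GA repeats.
Pits, first site, chrX:12579682-12579782: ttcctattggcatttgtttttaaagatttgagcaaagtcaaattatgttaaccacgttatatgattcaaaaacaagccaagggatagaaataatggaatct
Abd-B, chr3R:16938144-16938244: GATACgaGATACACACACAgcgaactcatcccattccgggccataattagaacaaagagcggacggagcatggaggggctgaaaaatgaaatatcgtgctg
Alh, chr3R:7123178-7123278: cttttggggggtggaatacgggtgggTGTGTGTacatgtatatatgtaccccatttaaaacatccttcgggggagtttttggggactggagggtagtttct
bel, chr3R:8659537-8659637: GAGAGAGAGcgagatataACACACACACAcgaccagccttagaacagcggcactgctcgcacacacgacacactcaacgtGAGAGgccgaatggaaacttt
A and T made up 71.3% of the window at bbg, 90.1% at Pex11c, 68.3% at bun, and 65.3% at both CHES-1-like and CG10555. In the second set they made up 59.4% at Cals, 64.4% at zfh2, 37.6% at the second Pits site, 65.3% at pan and 64.4% at jvl, so the sets met at 65.3%. They made up 70.3% at the first Pits site, 51.5% at Abd-B and 52.5% at Alh. The window at bel held 47.5% A and T, with runs of alternating C and A and of alternating G and A.

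Over all longer-list-only peaks the medians of the classes differed, with overlap between single peaks. The replicates' own thresholded lists divided the 1279 peaks into 315 that overlapped the list of replicate 1 alone, 258 that overlapped the list of replicate 2 alone, 20 that overlapped both and 686 that overlapped neither. The median A+T content within 50 bp of the summit was 68.3% in the 315 peaks of list 1 alone (quartiles 60.4% and 73.3%) and 55.4% in the 258 peaks of list 2 alone (quartiles 49.5% and 60.4%). It was 58.4% in the 686 peaks of neither list, where the quartiles were 49.5% and 67.3%. Thus the upper quartile of the list 2 peaks coincided with the lower quartile of the list 1 peaks. Shared peaks had the same medians, 68.3% in the 730 of list 1 alone and 55.4% in the 445 of list 2 alone, so the split was not limited to longer-list-only peaks. Base composition was not used by the rule that chose the peaks. With 2 libraries of 1 group no test between the replicates could be made.

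The difference was also seen among summits near a TSS and among those far from any. Summits were not matched for their position within promoters, and the part of position was not tested. Of the longer-list-only summits within 500 bp of a TSS, the 141 in list 1 alone had a median of 68.3% A+T and the 135 in list 2 alone 53.5%. Of those over 2000 bp from any TSS, the 101 in list 1 alone had 67.3% and the 61 in list 2 alone 54.5%. Further from the summit the classes came together and changed order: mean A+T in 51-bp windows was 67.5% at the summits of list 1 alone and 54.3% at those of list 2 alone, but 55.9% and 60.5% at 500 bp upstream on the plus strand.

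**Figure D1:**
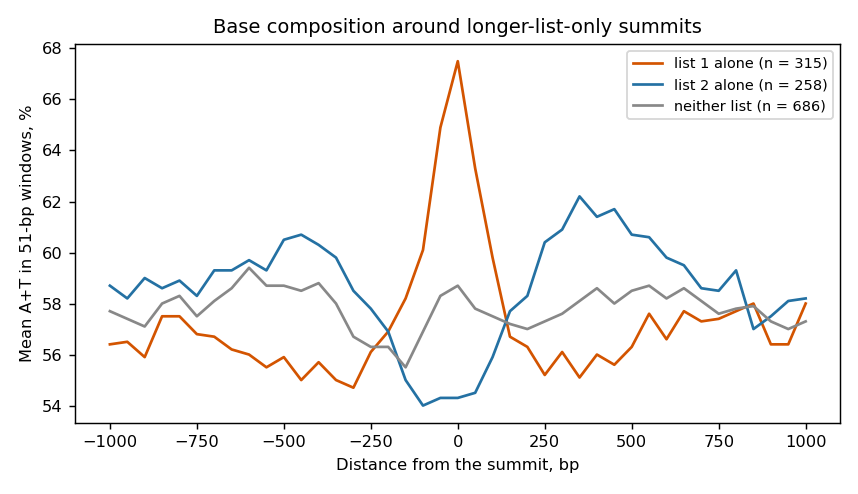
Mean A+T content (percent, vertical axis) in 51-bp windows at each distance from the summit (bp, horizontal axis) for longer-list-only peaks in list 1 alone, list 2 alone and neither list. The line for list 1 alone peaks at 67.5% over the summit, where the line for list 2 alone is at 54.3%; at 500 bp to the left they stand at 55.9% and 60.5%.

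Short words followed the composition. Words were counted on both strands in the 101-bp windows, and shares carry 95% exact Clopper-Pearson intervals, which cover counting error over peaks or windows alone. The word AAAATAT led the ranking of 7-letter words on conservative summits against windows 500 bp away, a ranking that used no longer-list-only peak. It was in 59 of the 315 peaks of list 1 alone (18.7%, interval 14.6 to 23.5) and in 14 of the 258 peaks of list 2 alone (5.43%, interval 3.0 to 8.94). All windows tiling the arms held it in 7.70%, and windows of the same length just before every TSS in 9.13%.

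Repeats of C with A and of G with A went the other way. ACACACA was in 10 windows of list 1 alone (3.17%, interval 1.53 to 5.76) and in 49 of list 2 alone (19%, interval 14.4 to 24.3), against 3.69% of windows along the arms and 3.60% before TSSs. GAGAG, the core of the element bound by the GAGA factor, was in 22 of list 1 alone (6.98%, interval 4.43 to 10.4) and in 63 of list 2 alone (24.4%, interval 19.3 to 30.1), against 11.4% along the arms and 14.6% before TSSs. The intervals of the 2 classes did not overlap for any of these 3 words, but they cover counting over peaks and not the difference between 2 libraries. Shared peaks split the same way. In those of list 1 alone and list 2 alone, AAAATAT was in 16.4% and 6.52%, ACACACA in 4.52% and 15.1%, and GAGAG in 8.63% and 20.2%. GAGAG overlaps itself in longer runs, and a window was counted once however often it held a word.

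GATAC, a word picked after its values had been seen, differed less between the classes. It was in 44 windows of list 1 alone (14%, interval 10.3 to 18.3) and 53 of list 2 alone (20.5%, interval 15.8 to 26), and these intervals overlapped. Over all 1279 longer-list-only summits 187 held it (14.6%, interval 12.7 to 16.7), against 11.4% of windows centred 500 bp to either side, 10.7% of windows along the arms and 11.9% of windows before TSSs. The 1279 candidates next below the threshold of the longer list held it in 14.6% as well, and the shared peaks in 15.3% (interval 14.1 to 16.5). Of the printed windows, Cals holds 2 copies and jvl holds 3; Abd-B, which was picked for this, holds 2. The Abd-B site lies in an intron of this Hox gene, upstream of the nearest TSS, where replicate 1 gave 22.0 and replicate 2 gave 94.9.

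Elements known from core promoters and early zygotic enhancers were rare. TATCGATA, which holds the site of the replication-related factor DREF, was in 15 longer-list-only windows (1.17%, interval 0.658 to 1.93), against 0.275% along the arms. All 15 were at promoters, where 2.60% of windows held it, against 4.39% of windows just before TSSs. GGTCACAC, the core of Motif 1, was in 9 windows (0.704%), against 0.210% along the arms, and these too were at promoters, where 1.56% held it against 2.23% before TSSs. CAGGTAG, the site of the early activator Zelda, was in 9 (0.704%), against 0.534% along the arms, and in 1.04% of promoter windows against 0.636% before TSSs. CAGCTG, an E-box, was in 56 (4.38%) against 4.24% along the arms.

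**Figure D2:**
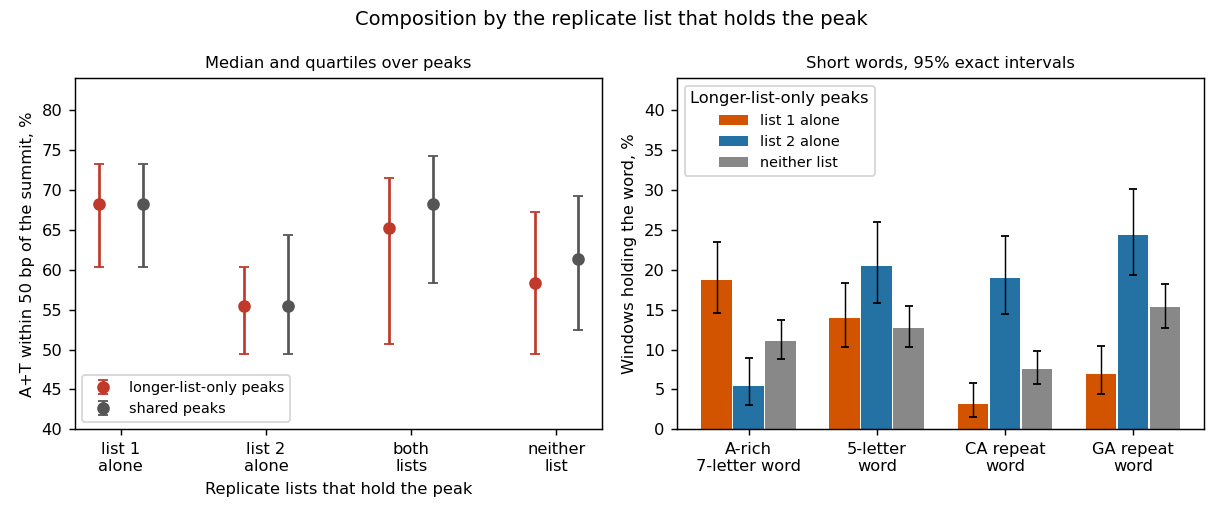
Left, A+T content within 50 bp of the summit (percent; points are medians, bars reach the quartiles) for longer-list-only and shared peaks by the replicate lists that hold them; right, share of longer-list-only windows that hold the word AAAATAT, the word GATAC, the CA repeat word ACACACA or the GA repeat word GAGAG (bars, with 95% exact intervals). Peaks of list 1 alone have a median of 68.3% and those of list 2 alone 55.4%, and ACACACA is in 3.17% and 19% of their windows.

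The same gradient ran through the replicate signals. For 1188 longer-list-only peaks with a candidate in each replicate, the log2 ratio of the replicate 1 signal to the replicate 2 signal was divided into 5 equal groups. From the lowest ratio to the highest, the median A+T content of the groups was 54.0%, 54.5%, 60.4%, 63.4% and 68.3%, and the share with ACACACA was 18.9%, 12.7%, 6.72%, 3.8% and 2.52%. Across these 1188 peaks the ratio and the A+T content gave a Pearson r of 0.41 and a Spearman rho of 0.42, and across 3319 shared peaks both were 0.43. These are descriptions across peaks of the same 2 libraries, and whether base composition affected how either library was prepared or sequenced was not tested.

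**Figure D3:**
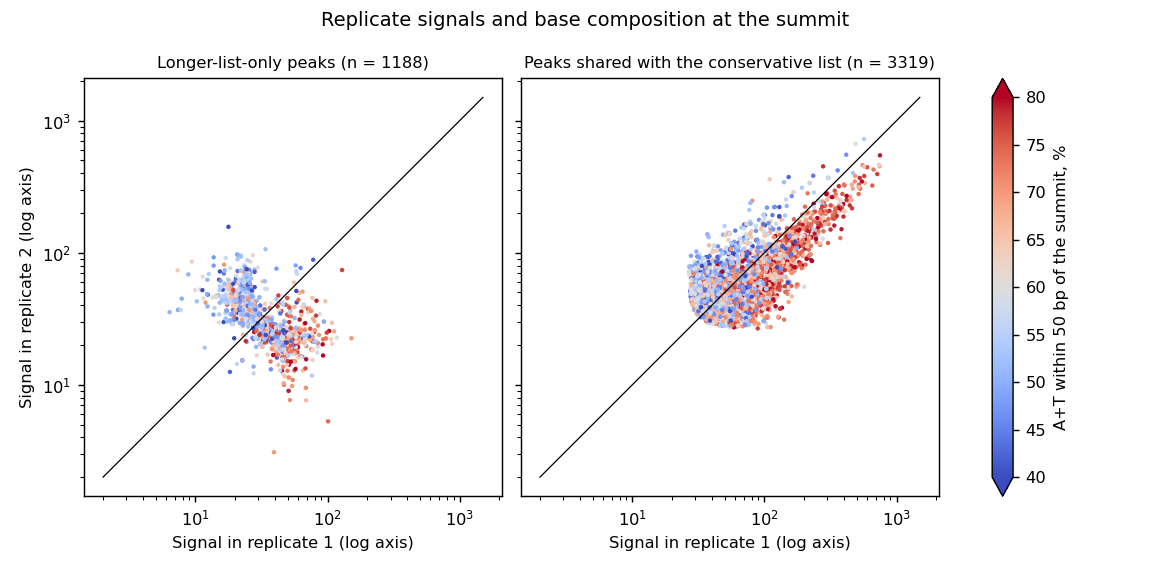
Signal in replicate 1 (horizontal) and replicate 2 (vertical), both on log axes, for 1188 longer-list-only peaks (left) and 3319 shared peaks (right), with points coloured by A+T content within 50 bp of the summit; the line marks equal signals. Longer-list-only peaks form a high-A+T group below the line and a low-A+T group above it, and few of them have a high signal in both replicates, a gap that the choice of the peaks itself creates.

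Signals were low by selection. The median signal in the longer list was 65.1 in longer-list-only peaks (quartiles 58.0 and 73.7, range 2.07 to 339) and 108 in shared peaks. The median in replicate 1 was 32.8 in longer-list-only peaks and 60.8 in shared peaks, and in replicate 2 it was 30.5 and 53.5 in the same order of peak sets. Replicate signals were over 2-fold apart in 480 of 1188 longer-list-only peaks (40.4%, interval 37.6 to 43.3) and in 397 of 3319 shared peaks (12%, interval 10.9 to 13.1). The value of replicate 1 was the higher one in 55.2% of these longer-list-only peaks and in 64.3% of these shared peaks. Among the 287 shared peaks whose signal lay between the quartiles of the longer-list-only peaks, 6 of the 284 with both values were that far apart (2.11%, interval 0.779 to 4.54). The rule fixes this contrast, since a peak on whose rank the replicates differ does not enter the conservative list.

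Overlap with the replicates' own lists was lower than for the longer list as a whole, again by selection. Longer-list-only peaks overlapped the list of replicate 1 in 335 cases (26.2%), beside 58.5% of all 4620 peaks of the longer list. They overlapped the list of replicate 2 in 278 cases (21.7%), beside 51.1% of all 4620. The shares for shared peaks were 70.9% in list 1 and 62.3% in list 2. No candidate of replicate 1 overlapped 66 longer-list-only peaks, no candidate of replicate 2 overlapped 26, and 1 of these had none in either.

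The lists behind the selection could be read in part from the files. Behind the conservative list stands a ranked one, in which 68.5% of candidates had a first value that matched a replicate 1 candidate by start and signal, and 65.3% a second value that matched a replicate 2 candidate, while in the list behind the longer one none matched. The IDR of the first of these comparisons, between replicates, had a median of 0.0328 in the 1233 longer-list-only peaks that had one, above the authors' threshold of 0.01. Only 1188 longer-list-only peaks had a candidate in each replicate's own list, so some peaks without a candidate were still compared between the replicates. Of the longer-list-only peaks, 436 had a replicate IDR just above it, up to 0.02, and 198 had one over 0.5. The 3 peaks nearest above the threshold lay at loco, prd1 and swm, each with a replicate IDR that rounds to 0.01. Their signals in replicates 1 and 2 were 28.1 and 41.8 at loco, 51.4 and 27.4 at prd1, and 32.8 and 32.1 at swm.

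The longer-list-only peaks closest to a conservative peak lay 62 bp away at larp, 83 bp at CG12402 and 115 bp at CG11961, with signals of 53.4, 59.0 and 53.5. The shared peaks of least overlap had 17 bp in common with a conservative peak at Rcd5, 31 bp at Gyg and 35 bp at spi, with signals of 76.4, 2.14 and 50.8. A conservative summit lay within 1000 bp of 148 longer-list-only summits (11.6%).

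A small group had very low signals in the longer list. Of the longer-list-only peaks, 135 had a signal under 40, with a median of 13.4. Of these, 122 (90.4%, interval 84.1 to 94.8) overlapped another peak of the longer list, and 118 overlapped a stronger longer-list-only peak. These 118 thus stand beside a stronger summit and often share its replicate candidates. Among the other 1144 peaks, 121 (10.6%, interval 8.85 to 12.5) overlapped another peak of the longer list. The lowest signal, 2.07, belonged to a peak in an intron of wake, where the strongest overlapping candidates reached 44.5 in replicate 1 and 27.8 in replicate 2.

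The strongest longer-list-only peaks mostly stood in the list of 1 replicate. The rule favours this, since a peak strong in both replicates could enter the conservative list. The 20 strongest had signals from 124 to 339, and 13 of them lay at most 500 bp from a TSS, beside 45.2% of all longer-list-only peaks. Of these 20, 6 had no candidate in replicate 1 and 2 had none in replicate 2. The lists of the replicates held 7 of them in list 1 alone, 9 in list 2 alone and 4 in both. Of all 1279 longer-list-only peaks, 24.6% were in list 1 alone, 20.2% in list 2 alone and 1.56% in both. In width, 1273 of the 1279 measured 390 bp. Narrower ones among the 20 strongest lay at CG45086 (242 bp), bbg (173 bp), bun (117 bp) and Pits (240 and 314 bp). A further narrow peak lay at spi (176 bp). Such peaks had less room to overlap a candidate or a conservative peak.

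Peaks high in replicate 2 led the order. The strongest, with a signal of 339, lay on 2R (12613068 to 12613309) within the spans of CG45086 and of Galphaq, which encodes the G protein alpha subunit that acts in phototransduction, and had no candidate in replicate 1 and a signal of 179 in replicate 2. The next, 266, lay on chromosome 4 (1122838 to 1123227), 68 bp upstream of a TSS of Cals, which encodes a calsyntenin of the neuronal membrane, with no candidate in replicate 1 and 188 in replicate 2. Peaks at jvl (135), whose product binds microtubules, and at chico (125), which encodes the insulin receptor substrate, likewise had no candidate in replicate 1 and had 105 and 74.1 in replicate 2. At Alh, a homologue of the chromatin regulator AF10, the peak of 134 had 33.9 in replicate 1 and 106 in replicate 2. At ctrip, which encodes a ubiquitin ligase of the circadian clock, the peak of 126 had 27.2 in replicate 1 and 95.6 in replicate 2.

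Other strong peaks were high in replicate 1. The peak at bbg (3L, 14448785 to 14448957), which encodes a PDZ domain protein of epithelia, had a signal of 257, with 165 in replicate 1 and no candidate in replicate 2. A peak of 202 lay 108 bp upstream of Pex11c (3R, 23258062 to 23258451), a peroxisome gene, with 132 in replicate 1 and no candidate in replicate 2. At Hsl, which encodes hormone-sensitive lipase, the peak of 129 had 103 in replicate 1 and 25.6 in replicate 2. CHES-1-like, which encodes a forkhead protein, had a peak of 141 with 96.3 in replicate 1 and 42.9 in replicate 2. CG10555 had a peak of 126 with 108 in replicate 1 and 29.5 in replicate 2. An intron of Smr, which encodes a nuclear receptor co-repressor, held a peak of 126 (X, 12735600 to 12735989) with 106 in replicate 1 and 22.2 in replicate 2.

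The 20 peaks that overlapped both replicate lists had summits that the replicates placed apart. The distance between the summits of the strongest candidates of the 2 replicates was over 100 bp in 17 of these 20 (85.0%, interval 62.1 to 96.8), with a median of 156 bp. It was over 100 bp in 348 of 1188 longer-list-only peaks in all (29.3%) and in 92 of the 1638 shared peaks in both lists (5.62%, interval 4.55 to 6.84). The rule shapes this contrast, since a peak that both replicates ranked high at the same place could enter the conservative list. Neighbouring peaks at Tctp took the same candidates, with summits 224 bp apart, so the 20 are not all separate. The 3 strongest of the 20 were at row, at the first Pits site, with summits 142 bp apart, and at tou. At row, which encodes a zinc finger protein, replicate 1 gave 129 and replicate 2 gave 74.0, with summits 137 bp apart. At tou, which encodes a chromatin remodelling subunit, the values were 77.9 and 88.6 in replicates 1 and 2, with summits 159 bp apart. At bel, a DEAD-box RNA helicase gene, the values were 41.0 and 75.8 in replicates 1 and 2, and the summits lay 136 bp apart. eEF5, which encodes a translation factor, had 58.7 in replicate 1 and 69.2 in replicate 2, with summits 125 bp apart.

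Some genes held neighbouring peaks of which one was high in replicate 1 and the other in replicate 2. The intron of Pits, which encodes a partner of the repressors Ttk69 and Sin3A, held a pair with summits 426 bp apart (X, 12579570 to 12579809 and 12579170 to 12579483). The first, which overlapped both replicate lists, had 152 in replicate 1 and 22.5 in replicate 2, and the second had 17.8 in replicate 1 and 157 in replicate 2. Their windows, printed above, hold 70.3% and 37.6% A+T.

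Within 1000 bp of each other there were 150 pairs of neighbouring longer-list-only summits, which took in 295 peaks. In 32 pairs both peaks were in list 1 alone, in 20 both were in list 2 alone, and in 6 there was 1 of each. These counts do not show that separate sites agree. Of the peaks with a signal under 40, 118 overlapped a stronger longer-list-only peak, often with the same candidates, which partly sets their list in advance. At Stat92E, which encodes the transcription factor of JAK/STAT signalling, the peak of list 1 had signals of 75.3 and 23.8 in replicates 1 and 2 and 79.2% A+T, and the peak of list 2, 682 bp away, had 25.6 and 73.9 and 46.5%. At bun, the pair lay 991 bp apart, with 112 and 25.4 in replicates 1 and 2 at the peak of list 1, which had 68.3% A+T, and 24.6 and 63.3 at the peak of list 2, which had 59.4%. The peak of list 1 had the higher A+T content in 5 of the 6 pairs. The exception was spi, which encodes the main ligand of the epidermal growth factor receptor, where the peak of list 1 had 118 in replicate 1, no candidate in replicate 2 and 49.5% A+T, and the peak of list 2, 286 bp away, had no candidate in replicate 1, 112 in replicate 2 and 58.4%. Both spi peaks still had an IDR between the replicates, 0.0359 for the peak of list 1 and 0.717 for that of list 2.

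The peaks of chromosome 4 were held mainly by replicate 2. This small chromosome is largely heterochromatic yet carries active genes. It held 11 longer-list-only peaks, 10 of them without a candidate in replicate 1 and none without one in replicate 2, where their signals ran from 31.0 to 188 with a median of 43.7. List 2 held 7 of the 11, and list 1 held 0. Replicate 1 had 95 candidates on this chromosome (70.5 per Mb) and replicate 2 had 294 (218 per Mb), while on the other 5 arms the densities were 638 to 732 per Mb in replicate 1 and 600.3 to 633 per Mb in replicate 2. The 10 shared peaks of chromosome 4 all had a candidate in each replicate.

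The genes nearest to these 11 peaks included several regulators. After Cals came zfh2, which encodes a homeodomain and zinc finger protein, with a peak of 175 located 3925 bp upstream of its TSS and a signal of 115 in replicate 2. The peak of 146 at pan, which encodes the TCF factor of Wingless signalling, had 101 in replicate 2. At ey, the Pax6 gene of eye development, the peak of 92.7 had 43.7 in replicate 2, and at onecut, a homeodomain gene, the peak of 60.9 had 42.7. None of these 4 had a candidate in replicate 1. The exception was near ci, which encodes the transcription factor of Hedgehog signalling, with 23.2 in replicate 1 and 71.8 in replicate 2. The others were near anne, RpS3A and 3 non-coding RNA or antisense genes, among them lncRNA:CR44024 and asRNA:CR44031.

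Across the arms the density was 9.74 to 10.2 longer-list-only peaks per Mb on 2L, 2R, 3L and 3R, 8.16 on 4 and 7.65 on X, against 23.9 to 26.3 shared peaks per Mb on the 4 large autosome arms, 7.42 on 4 and 24.9 on X. The X held 48 of the 315 peaks of list 1 alone (15.2%, interval 11.5 to 19.7) and 20 of the 258 of list 2 alone (7.75%, interval 4.80 to 11.7). The densities of the replicates' own lists on X were 21.8 per Mb in replicate 1 and 16.8 per Mb in replicate 2. The part of the libraries in this was not tested.

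The share of longer-list-only peaks at promoters lay below that of shared peaks and above that of the weaker candidates, and these shares were not tested. A summit was within 500 bp of a TSS in 578 of 1279 longer-list-only peaks (45.2%, interval 42.4 to 48.0), beside 49.3% of all 4620 peaks of the longer list, and in 1700 of 3341 shared peaks (50.9%, interval 49.2 to 52.6). In the 287 shared peaks of the same middle range of signal the share was 47.4% (interval 41.5 to 53.3), which overlapped that of the longer-list-only peaks. Among the 1279 candidates next below the threshold of the longer list it was 39.3% (interval 36.6 to 42.1). Over 2000 bp from any TSS lay 406 longer-list-only summits (31.7%, interval 29.2 to 34.4), beside 28.2% of all 4620, with 26.8% of shared peaks (interval 25.4 to 28.4) and 36.8% of the candidates below (interval 34.2 to 39.5). Of these 406, 284 were in introns (70.0%) and 107 between genes (26.4%).

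**Figure D4:**
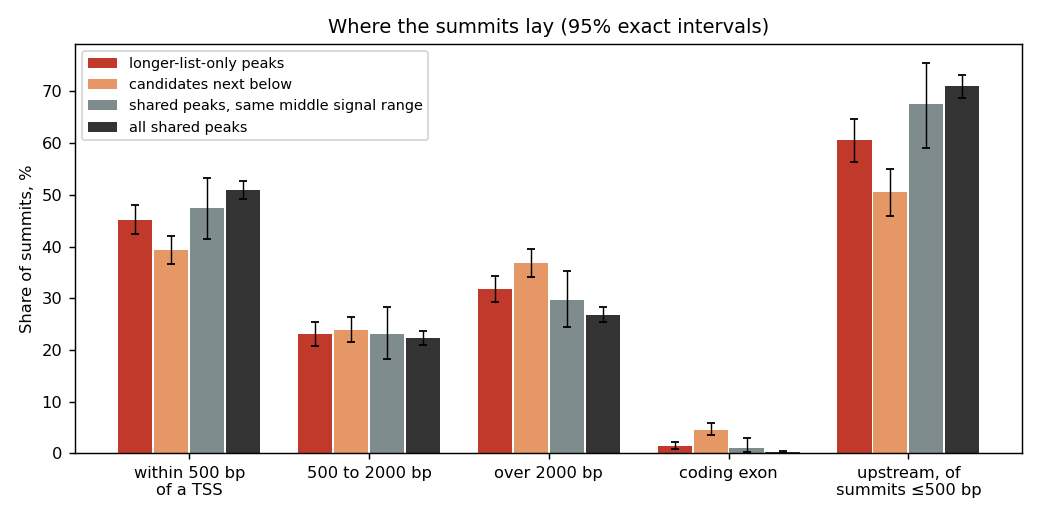
Share of summits (percent, with 95% exact intervals) by distance from the nearest TSS, in coding exons, and upstream of the TSS among summits within 500 bp, for longer-list-only peaks, the candidates next below the threshold, shared peaks in the same middle range of signal, and all shared peaks. Within 500 bp of a TSS the shares are 45.2%, 39.3%, 47.4% and 50.9% in that order.

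Within promoters, a smaller share of longer-list-only summits than of shared summits lay upstream of the TSS. The median summit lay 55 bp upstream in longer-list-only peaks and 94 bp upstream in shared peaks, and 350 of 578 longer-list-only promoter summits were upstream of the TSS (60.6%, interval 56.4 to 64.6), against 71.0% of those of shared peaks (interval 68.8 to 73.1). Among shared peaks in the same middle signal range the upstream share was 67.6% (interval 59.1 to 75.4) and the median 44 bp upstream. In the candidates next below the threshold it was 50.5% (interval 46.0 to 55.0). Coding exons held 18 longer-list-only summits (1.41%, interval 0.836 to 2.22), 10 shared ones (0.299%, interval 0.144 to 0.550) and 59 of the candidates below (4.61%, interval 3.53 to 5.91). The mean A+T content within 50 bp of the summit was 59.7% in longer-list-only peaks, 56.6% in the candidates below, 59.1% in shared peaks of the same middle range and 64.0% in all shared peaks. In promoter share, coding exon share and A+T content, longer-list-only values lay between those of all shared peaks and those of the candidates below.

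The promoter sites named further genes. Of 13945 protein-coding genes on the arms, 639 had a longer-list-only summit at most 500 bp from a TSS (4.58%), and 1965 had a conservative summit there (14.1%). Of the 639 genes, 563 had no conservative summit at the promoter and 76 had both. Because divergent and overlapping genes share promoters, 144 of the 553 peaks concerned lay at 2 or more coding genes. CG32767 itself, on the X (5071027 to 5084768, minus strand), had no longer-list-only summit within 2000 bp and 2 conservative ones.

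The 19 lists of genes counted next are small, they were drawn up with earlier results of these data known, and each share is to be read beside the 4.58% of all coding genes. Developmental lists had 3 of 8 Hox genes (37.5%, interval 8.52 to 75.5), 5 of 25 genes of the trachea (20%, interval 6.83 to 40.7), 4 of 25 ecdysone response and nuclear receptor genes (16%), 4 of 27 of EGFR and MAPK signalling (14.8%), 3 of 22 of Dpp signalling (13.6%), 4 of 30 of Wingless and Hedgehog signalling (13.3%), 5 of 45 of mesoderm and muscle (11.1%), 4 of 48 of neurogenesis (8.33%) and 1 of 22 of maternal, gap and pair-rule patterning (4.55%). The last count held ftz-f1 and did not take in hry, the pair-rule gene hairy, which had longer-list-only summits at its promoter. Of these developmental lists, the Hox and tracheal intervals lay above 4.58%. The intervals of the others included it, as for the ecdysone (4.54 to 36.1), EGFR and MAPK (4.19 to 33.7) and Dpp lists (2.91 to 34.9). No test of a list was made.

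The Hox genes were Abd-B, Dfd and Scr, which specify segments along the body. At Abd-B a promoter peak of 82.9 had 28.1 in replicate 1 and 54.9 in replicate 2, beside a conservative peak of 345 at the same gene. Dfd had a peak of 73.5, with 43.3 in replicate 1 and 36.1 in replicate 2, and no conservative summit. Scr had a peak of 71.4, with no candidate in replicate 1 and 49.7 in replicate 2. These 3 genes thus differed in whether both replicates had a candidate and in how close the deposited values were.

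The tracheal genes were pio, stumps, ttk, uif and vvl. At uif, which encodes a transmembrane protein of epithelia, the peak of 79.3 had 25.8 in replicate 1 and 59.3 in replicate 2. At vvl, which encodes a POU factor of tracheal fate, the peak of 70.9 had 25.1 in replicate 1 and 39.2 in replicate 2. At stumps, an adaptor of FGF signalling, the peak of 69.9 had 32.4 in replicate 1 and 27.7 in replicate 2, and a conservative peak of 133 lay at the same promoter.

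Signalling pathways had members at several levels. Among ligands, Krn of the EGFR pathway had a peak of 94.0, with 101 in replicate 1 and 5.29 in replicate 2, one of the widest replicate differences, at a promoter shared with CG7484 and Ndfip. Wnt6 had a peak of 77.5 with 60.0 in replicate 1 and 22.7 in replicate 2. Among receptors, the BMP receptor gene wit had a peak of 61.5 with 30.4 in replicate 1 and 31.2 in replicate 2. Within the pathways, the kinase gene Raf had a peak of 67.9 with 17.7 in replicate 1 and 43.6 in replicate 2, and Apc, part of the complex that degrades beta-catenin, had a peak of 72.3 with 33.0 in replicate 1 and 31.6 in replicate 2. Among nuclear factors, shn of the Dpp pathway had a peak of 81.2 with 18 in replicate 1 and 57.0 in replicate 2, and Dad, the inhibitory Smad of that pathway, a peak of 66.9 with 15.2 and 52.2 in replicates 1 and 2. As deposited, the values at wit and Apc were close between the replicates, and those at Krn, Wnt6, Raf, shn and Dad were further apart.

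Among housekeeping lists there were 7 of 54 translation factor genes (13%, interval 5.37 to 24.9), 7 of 92 genes with symbols of cytoplasmic ribosomal proteins (7.61%), 2 of 73 mitochondrial ribosomal genes (2.74%), 2 of 23 heat shock and chaperone genes (8.70%) and 3 of 36 cell cycle and replication genes (8.33%). Apart from that of the translation factors, the intervals of these lists included 4.58%, as for cytoplasmic ribosomal proteins (3.11 to 15.1). The conservative list had 10, 43, 19, 6 and 6 genes of these 5 lists. RpS29 had a longer-list-only peak of 99.1 with 61.6 in replicate 1 and 25.2 in replicate 2, and RpS5a one of 93.0 with 58.4 and 42.1 in replicates 1 and 2. The mitotic kinase gene aurA had a peak of 73.1 with 56.5 in replicate 1 and 20.6 in replicate 2, at a promoter shared with CG3281. The checkpoint kinase gene grp had one of 57.7 with 15.8 in replicate 1 and 55.3 in replicate 2.

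The 5 other lists had shares from 0 to 8.0%. Apart from that of the chemosensory receptors, their intervals included the 4.58% of all coding genes. Polycomb and trithorax genes had 1 of 31 (Su(z)2, 3.23%), where the conservative list had 13. The list named for insulators and pioneer factors had 2 of 25 (8.0%), where the conservative list had 12. Its 2 genes were JIL-1 and Nelf-A, which are neither insulator nor pioneer factor genes, so the list was wider than its name. Germline and piRNA genes had 1 of 29 (3.45%), cuticle protein genes had 1 of 97 (1.03%), and chemosensory receptor genes had 0 of 179, which allows a share of up to 1.68% by a limit of 3 counts and up to 2.04% by the exact interval. At Su(z)2, a relative of Psc, the longer-list-only peak of 111 had 62.5 in replicate 1 and 76.8 in replicate 2, with summits 171 bp apart, and a conservative peak of 87.6 lay at the same promoter.

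**Figure D5:**
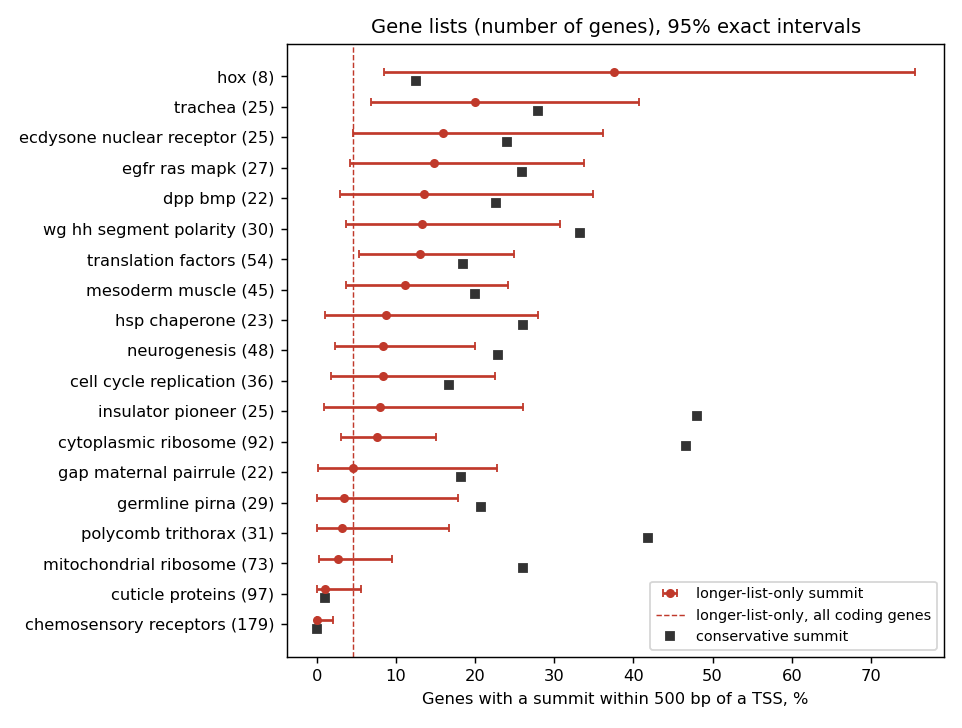
Share of genes (percent, horizontal axis) with a longer-list-only summit within 500 bp of a TSS (red points, 95% exact intervals) and with a conservative summit there (dark squares), for 19 gene lists; the dashed line marks the 4.58% of all coding genes with a longer-list-only summit. The Hox and tracheal lists stand highest at 37.5% and 20%, with wide intervals, and the chemosensory list is at 0.

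Longer-list-only peaks also gathered at some genes. The nearest TSS belonged to 1030 different genes, of which 842 were nearest to 1 peak, 142 to 2, 36 to 3, 8 to 4, 1 to 5 and 1 to 8. These genes were picked after their counts had been seen, and long genes or genes with many TSSs have more room for peaks. Some of the peaks counted overlapped each other and had the same replicate values, as at bun, sty, hry and tai, so the counts are not of separate sites.

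The gene with 8 was bun, which encodes a TSC22 family transcription regulator and spans introns and several promoters. Its 8 peaks lay over 79.0 kb with signals from 18 to 145, where 1 conservative peak, of 167, had bun as the nearest gene. Of the 8, 1 was in list 1 alone, 2 in list 2 alone and 5 in neither.

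Dad had 5 peaks, of 8.13 to 80.5, over 11.3 kb, and no conservative peak had it as the nearest gene. Of these 3 were in list 2 alone, 1 in list 1 alone and 1 in neither. The strongest lay in an intron, with 24.7 in replicate 1 and 49.9 in replicate 2. Another, of 70.8 and upstream of the gene, had 39.2 in replicate 1 and 27.3 in replicate 2, with summits 1 bp apart. The promoter peaks of 66.9 and 8.13, both in list 2 alone, overlapped and had the same replicate 2 value, 52.2.

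Genes with 4 peaks included tai, which encodes a co-activator of the ecdysone receptor and had 3 of its 4 in list 2 alone, with up to 96.9 in replicate 2 and 20.7 in replicate 1 at its promoter. The promoter peaks of tai, of 115 and 5.12, overlapped and had the same replicate values, so they are not separate sites. The 4 peaks of Eip75B, an ecdysone-induced nuclear receptor gene, had signals of 55.7 to 72.3, all in introns. Their deposited values covered similar ranges, 24.5 to 36.7 in replicate 1 and 27.9 to 38.0 in replicate 2. The 4 peaks nearest to sty, which encodes the Ras pathway inhibitor Sprouty, had signals of 7.73 to 73.7. At hry, the pair-rule gene hairy, the 4 peaks had signals of 7.99 to 80.7, and the strongest, at the promoter, had 26.9 in replicate 1 and 50.7 in replicate 2.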

How the data were processed

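The authors deposited 8 peak lists on dm6, per the labels, 4 thresholded and 4 ranked, for each replicate and in 2 combined versions. The signal of each peak is the authors' deposited value in their peak caller's units. In their thresholded lists the deposited score, an IDR on another scale, is never below 830, which stands for an IDR of 0.01. The −log10 of the IDR in the authors' deposited ranked lists was turned back into an IDR. Peak positions and summits were used as deposited and are given 1-based. Not given in the sources used here are the aligner, the caller, the control and any excluded regions.

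Peaks were intersected with an overlap of at least 1 bp with numpy 2.4.6 and pandas 2.3.3 under Python 3.11.15. Intervals came from scipy 1.17.1 and plots from matplotlib 3.10.9. Genes came from Ensembl release 115 (BDGP6.54), with 23581 distinct TSSs on the 6 arms, and sequence from the RefSeq dm6 genome. Each summit took the first class that applied of promoter (within 500 bp of a TSS), untranslated, coding exon, non-coding exon, intron and intergenic. The middle signal range is that between the quartiles of the longer-list-only peaks. The candidates next below are the 1279 of lowest IDR above the threshold. Overlap and word counts were checked on simulated intervals and sequences. With 1 group of 2 libraries no test over samples was possible, and labels do not say how separate the collections were.

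The peaks, the gene lists and the words were chosen with earlier results of these data known. Of 427 gene symbols listed, 31 were not matched to a coding gene and are not counted. Named genes are those nearest to the 20 strongest peaks and the 5 strongest over 2000 bp away, to the peaks of chromosome 4, to the 5 highest and 5 lowest replicate ratios, to the peaks at the edge of the rule, and the 3 strongest of each gene list. Genes at neighbouring pairs, in both replicate lists or with many peaks were named after their values were seen, as were the sequences printed.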

Additional observations from a re-analysis of the deposited data

How the results depend on the processing

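No paired analysis was possible because the 2 replicates form 1 group. Of the alternatives tried, 39 values stayed within the interval, quartiles or 1.5-fold range of the reported value, 27 moved and 0 reversed. With a conservative peak required to cover 50% of the shorter peak, the shares in list 1, in list 2 and near a conservative summit were 31.0%, 25.9% and 22.3%, and mean A+T was 59.3%. In the upper 50% by signal there were 639 peaks and 333 genes with a promoter summit and no conservative one, shares of 38.3% in list 1 and 29.9% in list 2, 9.23% near a conservative summit and 61.7% A+T. Keeping the strongest peak of each run within 1000 bp gave 60.3% A+T. Summits required within 100 bp gave 23.5% in list 1. Promoter windows of 250 and 1000 bp gave 36.4% and 57.4%, TSSs of coding genes alone gave 36.7% over 2000 bp away, and a window of 100 bp to either side gave 58.8% A+T and 20.1% with AAAATAT.

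Keeping only peaks in the list of the other replicate, each replicate left out in turn gave 278 to 335 peaks, 127 to 170 genes, 45.4% to 52.5% at promoters, 22.7% to 30.7% over 2000 bp away, 10.7% to 13.3% near a conservative summit, 55.1% to 66.0% A+T and 6.83% to 19.1% with AAAATAT. The last 2 moved to either side of the reported value by which replicate was kept. With only replicate 2 kept, the promoter share (52.5%) and the share over 2000 bp away (22.7%) also moved. Alternatives added after seeing the data left the median A+T of list 1 alone at 65.2% to 68.3% and of list 2 alone at 54.2% to 54.5%. Depth is unknown and limits every list.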

Other observations

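Large replicate differences were also found at single sites that no gene list covered. At REPTOR, which encodes a transcription factor downstream of TORC1, an intronic peak of 92.0 had 7.33 in replicate 1 and 73.6 in replicate 2. At Sfxn1-3, a sideroflexin gene, a promoter peak of 84.6 had 8.83 in replicate 1 and 68.6 in replicate 2. At Efa6, an intronic peak of 76.5 had 68.9 in replicate 1 and 7.63 in replicate 2, and at 5-HT2B, a serotonin receptor gene, a promoter peak of 73.1 had 39.3 in replicate 1 and 3.09 in replicate 2. These sites were named for their ratio, which is therefore a description.

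Of the 686 longer-list-only peaks in neither replicate's own list, 648 had a candidate in each replicate. The median signal was 30.6 over the 655 with a replicate 1 value and 30.1 over the 678 with a replicate 2 value. The median replicate IDR was 0.0213 over the 665 that had one, against the threshold of 0.01. Signals were over 2-fold apart in 86 of these 648 (13.3%, 95% exact interval 10.8 to 16.1), in 219 of the 297 peaks of list 1 alone with both values and in 172 of the 223 of list 2 alone. The median replicate IDR was 0.0556 over the 310 of the 315 peaks of list 1 alone that had one. Over the 238 of the 258 of list 2 alone it was 0.0913. In the peaks of neither list 42.4% of summits lay within 500 bp of a TSS (95% exact interval 38.7 to 46.2) and 35.3% over 2000 bp from any (interval 31.7 to 39.0). The 3 strongest peaks of neither list were at promoters, and their replicate values were apart. At kermit the peak of 110.1 had 22.1 in replicate 1 and 93.4 in replicate 2, and at twz the peak of 97.3 had 28.1 and 74.5 in replicates 1 and 2. At pico the peak of 96.6 had 66.2 in replicate 1 and 40.7 in replicate 2, with summits 137 bp apart and a replicate IDR of 0.709.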
